A study of Mus musculus with 8 samples.

Results

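Oxidative phosphorylation genes were examined complex by complex in RNA-seq libraries of mouse leukemic cells with and without Ikzf2, the gene of the Ikaros family zinc finger protein Helios. Members were all listed gene symbols that begin with Nduf, Uqcr, Atp5 or Cox4 to Cox8, together with Sdha, Sdhb, Sdhc, Sdhd and Cyc1, with pseudogene symbols left out. They numbered 93 of 24421 symbols, and 86 of them had enough counts to be tested, among 12623 tested genes. The cells were C57BL/6 bone marrow cells transformed by MLL-AF9, a fusion oncogene of acute leukemia, and sorted for a high level of the receptor c-KIT after frozen marrow was thawed. The WT group (Ikzf2f/f) and the KO group (Ikzf2Δ/Δ) had 2 RNA libraries each, and both groups carried MLL-AF9. The labels name neither the Cre used for the deletion nor whether the replicates of a group came from separate mice. The p-values thus rest on the variation among these libraries, and part of it may be technical.

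Oxidative phosphorylation couples the transfer of electrons from nutrients to oxygen with the making of ATP in the inner mitochondrial membrane. Complex I takes electrons from NADH and complex II from succinate, complex III passes them from ubiquinol to cytochrome c, and complex IV gives them to oxygen. The proton gradient that complexes I, III and IV build drives complex V, the ATP synthase. Most subunits are encoded in the nucleus, and complexes I, III, IV and V also hold subunits encoded in mitochondrial DNA, of which no rows were in the tables used here. Leukemic stem cells have been studied for their reliance on this pathway.

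Gene counts per library ran from 16006081 to 19286090. CPM below is the usual depth-scaled count of a gene, with TMM factors applied to the library totals, and values are given for WT replicates 1 and 2 and then for KO replicates 1 and 2. Ikzf2 stood at 283, 271, 10.9 and 26.5 CPM. The sorted receptor gene Kit was at 216, 330, 236 and 376 CPM and Ptprc, the pan-leukocyte antigen CD45, at 408, 388, 288 and 364 CPM. KO replicate 1 stood apart in its sex-linked genes, with Xist at 833 CPM against 0.35 to 0.60 CPM in the other 3 libraries, and in its genes on chromosome 19, as given below. The Y-linked gene Ddx3y was at 110, 102, 0.062 and 70.1 CPM. The KO replicates were thus cells of different sex and not from the same mouse. For the WT replicates these genes do not tell. Summed neutrophil granule markers (10 of 10 tested) differed between the groups and between the WT replicates, at 1172, 5715, 21352 and 28782 CPM. In 7 of the 10 both KO values were above the WT values, against 18.1% of all tested genes. Mmp8, Mmp9 and Retnlg overlapped between groups. Summed monocyte markers (6 of 6 tested) were at 2085, 1083, 2034 and 1745 CPM, of which Ly6c2 made up 1933, 856, 1258 and 1207 CPM. In 4 of the 6 both KO values were above the WT values, against 18.1% of all tested genes. Among these, F13a1 was at 25.5, 14.6, 232 and 154 CPM. Ly6c2 and Ccr2 overlapped between groups. Summed dendritic cell markers (5 of 6 tested) were highest in KO replicate 1, at 288, 186, 1837 and 402 CPM, among them Cd74 at 821 CPM there. In 3 of them both KO values were above the WT values, while H2-Ab1 and Flt3 overlapped between groups. Flt3 was lowest in KO replicate 1, at 248, 153, 69.1 and 286 CPM, and made up most of the sum in the other libraries. Erythroid markers (3 of 10 tested) were highest in KO replicate 2, at 2.301, 1.96, 3.28 and 52.6 CPM, of which Car2 made up 50.4 CPM, while the globin genes Hba-a1, Hba-a2, Hbb-b1 and Hbb-b2 had 0 counts in the 4 libraries. DESeq2 called 5 of 10 neutrophil, 3 of 6 monocyte, 3 of 6 dendritic and 1 of 10 erythroid markers as higher in KO. Over all 16651 genes it called 2.11% in either direction and 0.859% as lower in KO. The part of these markers in the comparison of genotypes below was not tested.

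The subunits of complexes I to V did not separate the genotypes. Their summed level was 9419 and 7823 CPM in WT against 9297 and 7093 CPM in KO, and the groups overlapped. By edgeR's quasi-likelihood test, 0 of 86 tested members passed an adjusted p of 0.05, and the background over all tested genes was 0%. The lowest edgeR adjusted p over all tested genes was 0.207, so the test did not call the deleted gene Ikzf2 either. The lowest adjusted p among the members was 0.624, for Cox6b2. At an unadjusted p under 0.05 stood 1 member, against 7.67% of all tested genes. DESeq2 called 0 members as well, with 2.11% of 16651 genes called and 0.859% called as lower in KO, and limma voom called 0 members and 0% of all genes. The median log2 fold change of KO over WT was 0.0048 over the members and -0.0043 over all tested genes, and the median of its size was 0.130 and 0.265. It was above 0 in 46 members and below 0 in 40, against 49.5% of all tested genes above 0. In bulk RNA, fewer cells of a type and less RNA per cell cannot be told apart.

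The groups were free of overlap in 12 of 86 members, or 14.0%, with both KO values above or both below the WT values, against 37.2% of all tested genes. Of these, 9 had both KO libraries lower (19.1% of all genes) and 3 had them higher (18.1%). Among the 9 were Ndufs8, Ndufv1, Ndufb8, Sdha, Uqcrfs1, Cox6b2, Atp5a1 and Atp5b, and the 3 were Ndufb3, Ndufv3 and Atp5sl. Ndufb8 is an accessory subunit and Cox6b2 a tissue isoform, and the other genes named as lower are core subunits of their complexes.

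**Figure D1:**
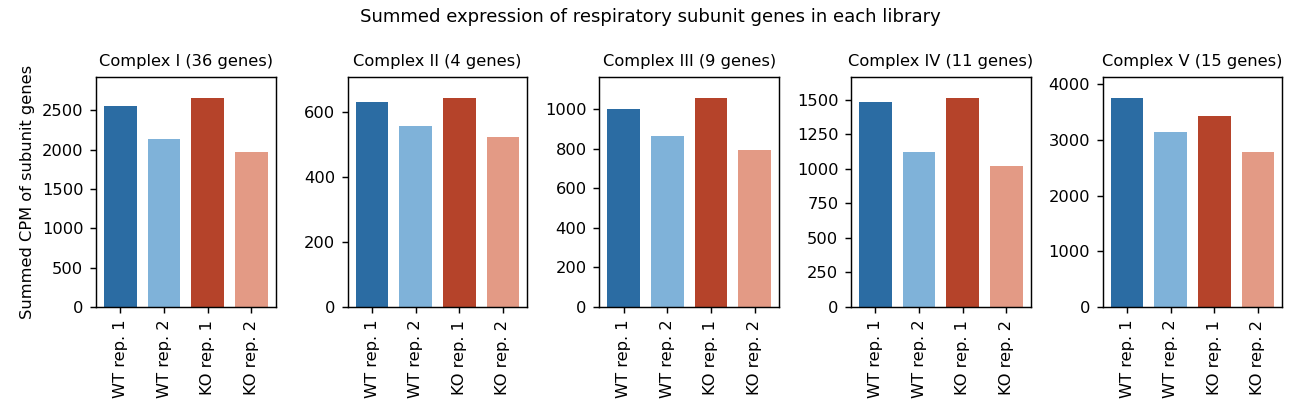
Summed CPM (y axis, from 0) of the subunits of each complex in each of the 4 libraries, with 1 bar per library. Replicate 1 exceeds replicate 2 within each genotype in every complex, as in complex IV with 1485 and 1126 CPM in WT against 1513 and 1023 CPM in KO.

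Complex I, the NADH dehydrogenase, had 36 members, of which 35 were tested and Ndufs5, an accessory subunit, was listed at 0 in all libraries. Its summed level was 2550 and 2138 CPM in WT against 2655 and 1972 CPM in KO, a KO to WT ratio of 0.987. The 7 core subunits, which hold the flavin, the iron-sulphur clusters and the ubiquinone site, had a median log2 fold change of -0.11, and the 28 tested accessory subunits, which surround the core, had one of 0.032.

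Among the core subunits, Ndufs1, the iron-sulphur subunit of the NADH-oxidising arm, was nearly level across the libraries at 87.4, 80.5, 88.0 and 82.1 CPM. Ndufv2, which carries an iron-sulphur cluster beside the flavin, was highest in KO replicate 1 and lowest in KO replicate 2, at 105, 101, 139 and 80.7 CPM. Ndufs3 and Ndufs7, both core subunits of the arm toward ubiquinone, had log2 fold changes of -0.11 each with overlapping groups.

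Ndufv1, the flavin-binding subunit that oxidises NADH (chromosome 19, 4007499 to 4012755), had 119.99, 87.6, 60.8 and 85.8 CPM, the lowest log2 fold change of complex I at -0.50 (SE 0.27, edgeR adjusted p = 0.775). KO replicate 2 and WT replicate 2 were almost equal, and KO replicate 1 was the lowest library. Ndufs8, a core iron-sulphur subunit (chromosome 19, 3908863 to 3912774), had 80.3, 70.8, 57.6 and 61.8 CPM, with both KO libraries below both WT libraries. At the other end stood Ndufb3, an accessory subunit of the membrane arm, with 41.6 and 39.6 CPM in WT against 64.0 and 44.6 CPM in KO (a log2 fold change of 0.42, SE 0.26, edgeR adjusted p = 0.807). Its KO replicates differed from each other by more than KO replicate 2 differed from WT.

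Complex II, succinate dehydrogenase, is encoded wholly in the nucleus by the 4 Sdh genes. Its sum was 631 and 557 CPM in WT against 643 and 522 CPM in KO. Sdha, the flavoprotein that oxidises succinate, had 271 and 241 CPM in WT against 238 and 227 CPM in KO (a log2 fold change of -0.14, SE 0.20). Sdhb, the iron-sulphur subunit, had 97.0, 73.3, 92.1 and 64.1 CPM. The membrane anchors Sdhc and Sdhd had log2 fold changes of 0.053 and 0.13 with overlapping groups, and that of Sdhc was -0.0056 when scaled by library totals alone.

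Complex III, the cytochrome bc1 complex, had 9 members, and in all 9 replicate 1 was above replicate 2 in both genotypes. The sum was 999.5 and 863 CPM in WT against 1056 and 792 CPM in KO. Cyc1, which encodes cytochrome c1, was highest in KO replicate 1, at 138, 107, 172 and 107 CPM (log2 fold change 0.19, SE 0.30). Uqcrfs1, the Rieske iron-sulphur protein, was lower in both KO libraries, at 123, 105, 104 and 83.3 CPM (log2 fold change -0.28, SE 0.22), although WT replicate 2 and KO replicate 1 were almost equal. The core proteins Uqcrc1 and Uqcrc2, which scaffold the complex, had log2 fold changes of 0.086 and 0.076. Uqcrq, a small subunit, had the lowest value of complex III at -0.31 (SE 0.27).

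Complex IV, cytochrome c oxidase, had 11 tested members apart from tissue isoforms, and 0 of them had groups without overlap, against 37.2% of all tested genes. Ndufa4, which was first assigned to complex I and is now placed in complex IV, had 156, 99.6, 162 and 89.2 CPM. Cox4i1, the general isoform of the regulatory subunit 4, had 329, 292, 336 and 213 CPM, with KO replicate 2 lowest. Cox5a had 134, 91.1, 158 and 99.3 CPM and Cox5b, a zinc-binding subunit, 61.5, 35.5, 60.8 and 42.3 CPM. In both Cox5 genes each library of replicate 1 exceeded each library of replicate 2. Cox7c was highest in fold change at 0.22 (SE 0.47) and rested on low levels of 6.58 to 12.9 CPM. RefSeq lists pseudogenes of Cox7c, Cox5b, Ndufs5, Ndufab1, Uqcrh, Atp5c1, Atp5k and Atp5l, so that their counts are uncertain where reads fit both copies.

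Most tissue isoforms of complex IV had few or no counts. Cox4i2, the lung isoform, had 2, 0, 5 and 4 counts, Cox6a2, the heart and muscle isoform, 19, 1, 3 and 3 counts, and Cox7b2 and Cox8c 0 counts. Cox8b had 2 counts and Ndufa4l2 had 2, each in 1 library. A count of 0 allows up to 3 counts, or 0.156 to 0.187 CPM before scaling, a limit that covers counting error only. Cox7a1, the heart and muscle isoform of subunit 7a, was tested on 42, 28, 28 and 11 counts and had a log2 fold change of -0.59 (SE 0.76). Cox6b2, known as the testis isoform of subunit 6b, had far more, with 62.5 and 36.4 CPM in WT against 29.8 and 23.7 CPM in KO.

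Cox6b2 (chromosome 7, 4751792 to 4753094) had the smallest unadjusted p of the members, 0.0427, with a log2 fold change of -0.89 (SE 0.34, n = 2 per group), a level 1.85-fold lower in KO. Its edgeR adjusted p was 0.624 and that of DESeq2 0.401, so it passed neither. The WT replicates differed from each other by more than the nearest KO and WT libraries did. Without WT replicate 1 the log2 fold change was -0.44, and over the other libraries left out in turn it ran from -1.21 to -0.73. Its general counterpart Cox6b1 had 145, 116, 167 and 105 CPM, a log2 fold change of 0.056. The general isoforms Cox6a1 and Cox7a2 had log2 fold changes of 0.093 and 0.11, and Cox7b had one of -0.12, all with overlapping groups.

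Complex V, the ATP synthase, had the lowest KO to WT ratio of sums, 0.901, with 3753 and 3141 CPM in WT against 3431 and 2783 CPM in KO. The lower sum lay in the catalytic F1 head, whose 5 members summed to 2838 and 2479 CPM in WT against 2459 and 2131 CPM in KO (ratio 0.863), against ratios of 0.989 for the c-ring and 1.05 for the stalk and membrane subunits. Within F1 most of the difference came from Atp5b and Atp5a1, the genes described next. Atp5c1 and Atp5e were nearly level, with means of 261 and 131 CPM in WT against 260 and 131 CPM in KO. The F1 groups did not overlap, as was so in 37.2% of all single tested genes. The smallest exact permutation p that 2 against 2 libraries allow is 0.333.

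Atp5b, the catalytic beta subunit, had 1205 and 1055 CPM in WT against 938 and 913 CPM in KO (a log2 fold change of -0.29, SE 0.22, edgeR adjusted p = 0.866). Atp5a1, the alpha subunit, had 1069.8 and 992 CPM in WT against 953 and 822 CPM in KO (-0.22, SE 0.22, edgeR adjusted p = 0.908). Neither passed the test, though both KO values lay under both WT values in each gene. Without KO replicate 2 the value of Atp5a1 was -0.11, and without WT replicate 1 that of Atp5b was -0.19. Atp5c1, the gamma subunit that turns within the head, overlapped between groups at 281, 241, 302 and 218 CPM. The delta subunit gene Atp5d had -0.22 and the epsilon subunit gene Atp5e 0.0019, and that of Atp5e was -0.054 when scaled by library totals alone.

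Atp5l, which encodes the membrane subunit g, had the highest log2 fold change of complex V, 0.20 (SE 0.57), on low levels of 4.55, 2.49, 4.33 and 3.76 CPM.

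The c-ring, which rotates as protons pass, is made from the same mature protein encoded by Atp5g1, Atp5g2 and Atp5g3. Atp5g3 had 251, 168, 245 and 165 CPM, Atp5g1 had 33.1, 24.5, 39.04 and 24.0 CPM, and Atp5g2 had 4.20, 2.60, 4.02 and 1.64 CPM. In all 3 genes the replicates of a genotype differed by more than the genotype means did.

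**Figure D2:**
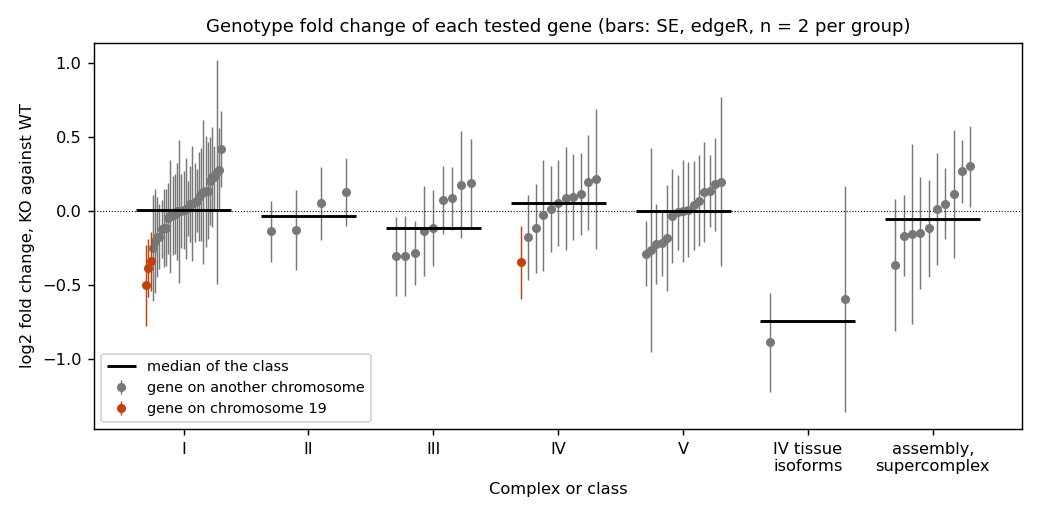
The log2 fold change of KO over WT by edgeR (y axis) of each tested member, by complex or class (x axis), with 1 point per gene, bars of 1 SE and a line at the median. Medians of complexes I to V lie between -0.11 and 0.056, and 0 members passed an adjusted p of 0.05.

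Assembly and supercomplex factors, which build the complexes without being catalytic subunits, numbered 10, all tested. Ndufaf1 to Ndufaf7 act in complex I assembly, as does Atp5sl despite its symbol. Cox7a2l is classed as a factor for supercomplexes of complexes III and IV, and its activity was not measured here. Their median log2 fold change was -0.051. Atp5sl was higher in both KO libraries, at 38.9 and 38.4 CPM in WT against 49.7 and 43.4 CPM in KO. Cox7a2l was lowest in KO replicate 2, at 160.4, 183, 185 and 122 CPM.

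Across the complexes, the median difference of the members was larger between the replicates of a genotype than between the means of the genotypes. A fold change of group means levels out any replicate difference that both groups share, so the measures are unlike. Replicate 1 was above replicate 2 in both genotypes in 76 of 86 members, or 88.4%, against 29.5% of all tested genes. WT replicate 1 exceeded WT replicate 2 in 81 members (50.2% of all genes), and KO replicate 1 exceeded KO replicate 2 in 81 (50.7%). Replicate numbers are those of the sample titles, other numbering in the deposit differs from them, and neither is said to tie a WT library to a KO library. The joint count thus says only that most members were higher in the same library of each genotype. The median log2 difference between the replicates was 0.31 in WT and 0.53 in KO over the members, and 0.0017 and 0.012 over all genes. Complex IV differed most, with a sum 1.32-fold higher in replicate 1 in WT and 1.48-fold higher in KO, and complex II least in WT, at 1.13-fold. Within complex I, the core subunits differed by medians of 0.15 and 0.12 and the accessory subunits by 0.30 and 0.58. Without Ndufs8 and Ndufv1, which lie on chromosome 19, the core medians were 0.12 and 0.29.

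The direction of each complex depended on which library was left out. Without KO replicate 1 the median log2 fold changes of complexes I to V were -0.29, -0.19, -0.37, -0.23 and -0.32, and without KO replicate 2 they were 0.25, 0.19, 0.14, 0.34 and 0.30. All 5 medians turned sign with the KO library that was kept. Without WT replicate 1 they were 0.14, 0.12, 0.087, 0.33 and 0.26, and without WT replicate 2 they were -0.14, -0.14, -0.16, -0.15 and -0.19.

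Summed immediate early genes, which respond within minutes to stimulation or handling, were higher in replicate 2 of both genotypes, at 1044, 3599, 1493 and 9766 CPM, and each of the 8 genes was. Their part in the replicate difference of the members was not tested. Reads with more than 1 alignment made up 32.1%, 31.7%, 33.1% and 26.0% of all reads tallied, including those assigned to no gene, so that KO replicate 2 was lowest while the WT libraries were close. Of the summed CPM of the 5 complexes, complex I took 27.1%, 27.3%, 28.6% and 27.8% and complex V 39.8%, 40.1%, 36.9% and 39.2%. The share of complex IV was higher in replicate 1 of both genotypes, at 15.8%, 14.4%, 16.3% and 14.4%. Complex II took 6.70% to 7.36% and complex III 10.6% to 11.4%.

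**Figure D3:**
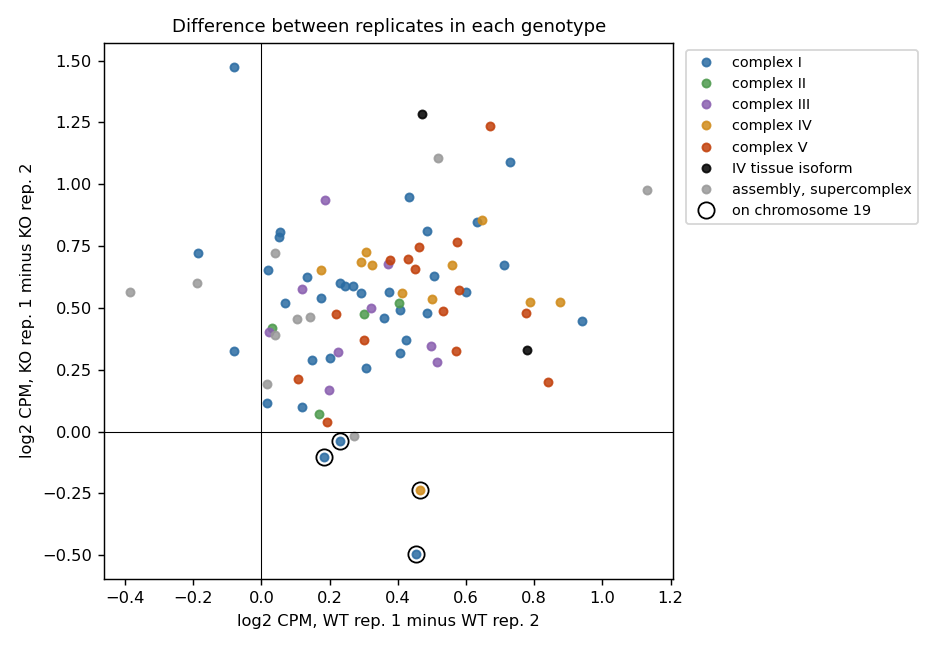
The log2 CPM difference of replicate 1 minus replicate 2 in WT (x axis) and in KO (y axis), with 1 point per tested member and colours for complexes. Both differences are above 0 in 76 of 86 members.

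**Figure D4:**
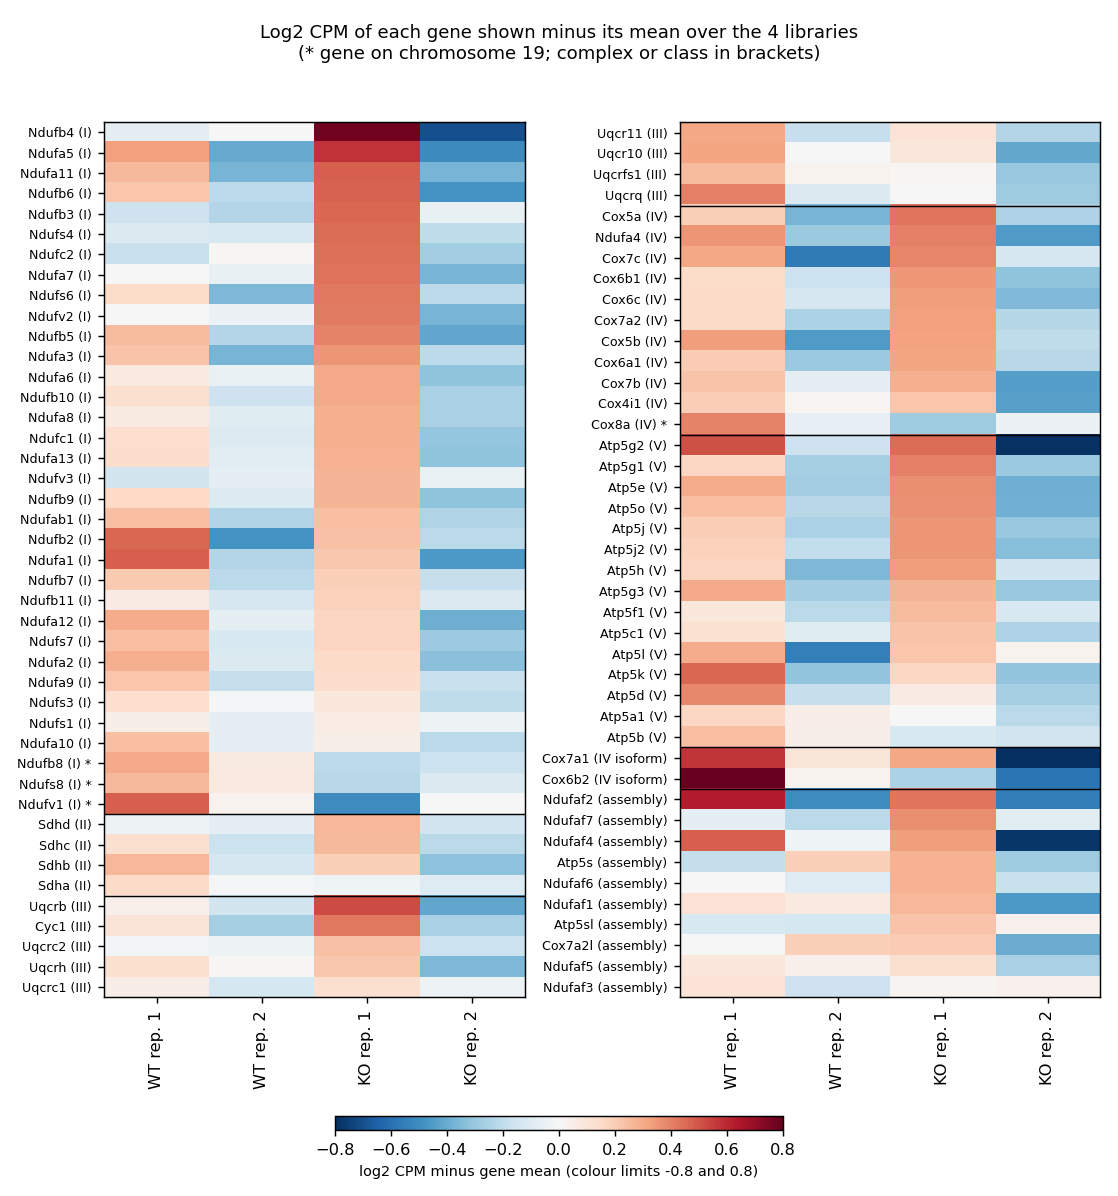
Log2 CPM of the tested members shown, minus each gene's own mean over the 4 libraries, with genes in rows by complex and libraries in columns, and colour limits at -0.8 and 0.8. Both replicate 1 columns are mostly above the mean, and the 4 genes on chromosome 19 (asterisk) differ in KO replicate 1.

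The 10 exceptions to the replicate order included all 4 members on chromosome 19, namely Ndufs8, Ndufv1, Ndufb8 and Cox8a. Ndufb8, an accessory subunit of the complex I membrane arm (44548571 to 44555442), had 95.5, 81.4, 66.9 and 68.7 CPM. Cox8a, the general isoform of complex IV subunit 8 (7215158 to 7217616), had 191, 138, 119 and 139.9 CPM. In each of the 4 genes KO replicate 1 was the lowest library, while among the 82 tested members on other chromosomes it was the lowest in 0. Over all genes KO replicate 1 was lowest in 30.6%.

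Chromosome 19 as a whole was low in KO replicate 1. Over its 337 genes with a mean log2 CPM of at least 3, the median log2 difference between KO replicate 1 and the mean of the other 3 libraries was -0.57, a 0.673-fold level, and KO replicate 1 was lowest in 275 of them, or 81.6%. The 4 segments of 20 Mb along the chromosome had medians between -0.62 and -0.52, the latter in the last segment, which held only 8 genes. On chromosome 17 the median was 0.20, and on the other 18 chromosomes it ran from -0.055 to 0.086. All 7 members on chromosome 17, among them Ndufv2, Ndufv3 and Ndufa11, were highest in KO replicate 1, as were 43 of 72 members off chromosomes 17, 19 and X. Among all genes with a mean log2 CPM of at least 3, it was highest in 47.3% on chromosome 17. On the other 18 chromosomes that share was 25.6% to 37.2%. DNA copy number was not measured here, and the part of the cells' chromosomes in these values was not tested.

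Of the 9 members lower in both KO libraries, 3 were on chromosome 19. Without KO replicate 1, the log2 fold changes were -0.27 for Ndufv1, -0.29 for Ndufs8, -0.36 for Ndufb8 and -0.23 for Cox8a, against -0.50, -0.34, -0.38 and -0.35 with all libraries. After subtraction of the chromosome's median log2 fold change of -0.23, an alternative chosen after seeing the data, they were -0.27, -0.11, -0.15 and -0.11. For comparison, the medians of complexes I and IV without KO replicate 1 were -0.29 and -0.23. The 3 members on the X chromosome, Ndufa1, Ndufb11 and Cox7b, had a median of 0.29 for KO replicate 1 against the other 3 libraries, and 72 members off chromosomes 17, 19 and X one of 0.36.

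**Figure D5:**
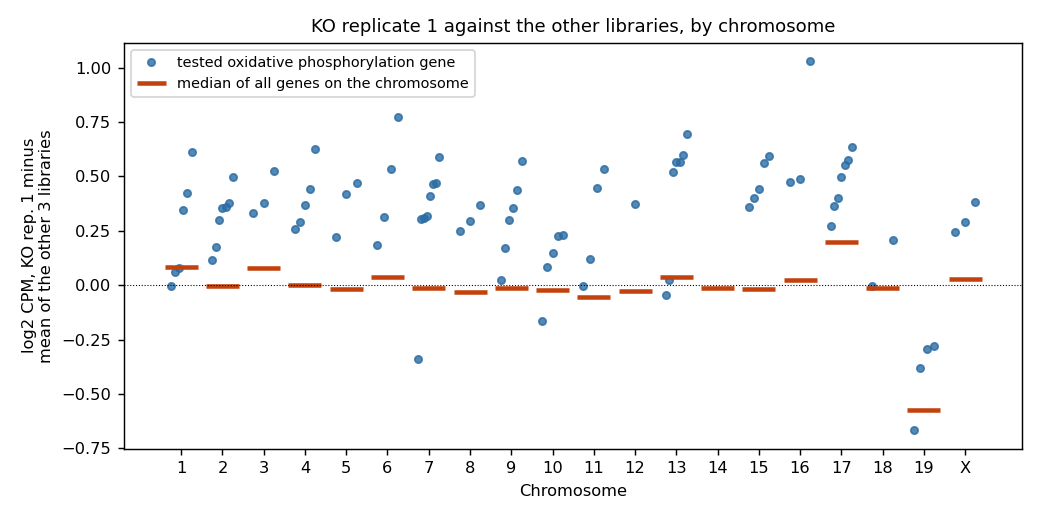
The log2 CPM of KO replicate 1 minus the mean of the other 3 libraries (y axis) by chromosome (x axis), with a line at the median over all genes of the chromosome and 1 point per tested member. The all-gene median is -0.57 on chromosome 19, and the 4 members there all lie below 0.

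Promoters were read for all members with a RefSeq window, and those below are examples that hold a searched motif from each complex. Replicate 1 exceeded replicate 2 in both genotypes in all of them but Cox8a. They run from 120 bases before to 30 bases after the RefSeq transcription start on GRCm38.p6, 5′ to 3′ on the gene's strand. Atp5j has another RefSeq start, not shown, whose window held none of the searched letters. Capitals mark the letters GCGCATGC of nuclear respiratory factor 1 (NRF1), CCGGAAGT of ETS factors such as GABPA, or AAGATGGCG of YY1, on either strand, with 2 overlapping matches shown as 1 run.
Ndufa11 (complex I, chr17:56717642-56717791, plus strand): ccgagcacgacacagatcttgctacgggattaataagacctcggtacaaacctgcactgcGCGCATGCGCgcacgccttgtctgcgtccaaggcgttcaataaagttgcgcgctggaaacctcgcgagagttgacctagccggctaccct
Sdhb (complex II, chr4:140961151-140961300, plus strand): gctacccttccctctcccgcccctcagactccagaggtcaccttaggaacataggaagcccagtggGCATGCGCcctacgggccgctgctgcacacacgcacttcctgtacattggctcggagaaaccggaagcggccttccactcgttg
Uqcr11 (complex III, chr10:80406792-80406941, minus strand): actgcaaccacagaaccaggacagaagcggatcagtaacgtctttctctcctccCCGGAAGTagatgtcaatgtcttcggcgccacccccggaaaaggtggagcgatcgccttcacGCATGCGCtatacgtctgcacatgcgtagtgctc
Cox8a (complex IV, chr19:7217587-7217736, minus strand): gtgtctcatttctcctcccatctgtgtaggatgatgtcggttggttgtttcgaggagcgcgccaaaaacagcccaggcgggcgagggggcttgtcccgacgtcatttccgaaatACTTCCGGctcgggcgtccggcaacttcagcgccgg
Atp5k (complex V, chr5:108434370-108434519, minus strand): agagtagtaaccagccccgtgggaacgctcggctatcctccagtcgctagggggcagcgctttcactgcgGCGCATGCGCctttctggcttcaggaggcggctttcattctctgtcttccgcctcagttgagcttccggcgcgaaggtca
Atp5j (complex V, chr16:84834947-84835096, minus strand): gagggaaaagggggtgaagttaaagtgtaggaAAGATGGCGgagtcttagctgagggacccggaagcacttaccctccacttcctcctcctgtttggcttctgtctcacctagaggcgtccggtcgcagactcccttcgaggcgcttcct

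NRF1, GABPA and YY1 are textbook activators of nuclear genes for the respiratory chain. In windows from 250 bases before to 50 after the start, the NRF1 letters were found in 12 of 73 members with a RefSeq window (16.4%), against 5.96% of 10065 tested genes and 2.71% of 32851 windows. The YY1 letters were found in 8 of 73 (11%), against 3.61% and 1.4%. The ETS letters were found in 5 of 73 (6.85%), against 9.32% and 3.89%. Any of the 3 was found in 24 members, or 32.9%, against 17.6% of tested genes. Cox8a, in which KO replicate 1 was lowest, held the ETS letters, but so did Atp5h, Uqcrh, Uqcr11 and Ndufs3, in which it was not lowest. Ndufa11, in which KO replicate 1 was highest, held the NRF1 letters, but so did Sdhb, in which it was not highest. A link between these letters and the levels was not tested.

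Genes that support the chain were counted from 4 further lists, and 0 of their members passed edgeR or DESeq2. Among other assembly factors 23 of 39 tested genes were below 0 (median log2 fold change -0.066), and in 9 both KO values were under the WT values, against 19.1% of all tested genes. Replicate 1 was above replicate 2 in both genotypes in 20 of the 39, against 29.5%. Coa5, a complex IV assembly factor, had 146, 141, 122 and 139.8 CPM. Cox15, which makes heme A for complex IV and lies on chromosome 19, was lowest in KO replicate 1, at 100.4, 90.6, 57.8 and 82.1 CPM.

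Electron carriers and regulators of the chain were below 0 in 15 of 25 tested genes (median -0.075). Etfb, a subunit of the electron transfer flavoprotein, had 281, 230.3, 281 and 217 CPM, and Atpif1, the inhibitor of the ATP synthase, had 141, 109.7, 131 and 88.2 CPM, both higher in replicate 1. In 16 of the 25 carriers and regulators of the chain replicate 1 was above replicate 2 in both genotypes. Regulators of nuclear respiratory genes were below 0 in 10 of 19 (median -0.0072). The levels of Yy1 were 147, 145, 154 and 139 CPM, and those of Gabpb2, a partner of GABPA, 159, 149, 129 and 196 CPM. Replicate 1 was above replicate 2 in both genotypes in 6 of the 19 regulators.

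The tricarboxylic acid cycle feeds NADH and succinate to complexes I and II. Of its 18 tested genes 12 were below 0, with a median log2 fold change of -0.20, and in 5 both KO values were under the WT values, against 19.1% of all tested genes. Mdh2, mitochondrial malate dehydrogenase, had 409 and 414 CPM in WT against 349 and 345 CPM in KO, and Cs, citrate synthase, had 336 and 349 CPM in WT against 282 and 309 CPM in KO. Replicate 1 was above replicate 2 in both genotypes in 8 of these 18 genes.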

How the data were processed

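RNA-seq libraries from 2 WT and 2 KO samples were used, grouped by their titles, and 4 ATAC-seq samples were not analysed here. The authors deposited untransformed read counts by gene symbol, in 1 file for each library. Per the submitters' processing notes, STAR 2.3.0 and HTSeq were among the tools and mm10 was the build. The annotation, strand setting and treatment of multiply aligned reads stand in none of the sources used here. Closing rows that name no gene held 69.3% to 72.4% of counts and were left out. Replicates differed by more than sampling noise (chi-square over degrees of freedom 68.1 for WT, 91.1 for KO).

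Counts were filtered by filterByExpr and tested in edgeR 4.0.16 (TMM, robust quasi-likelihood F-test, KO against WT, no covariate) under R 4.3.3, with Benjamini-Hochberg adjustment over 12623 genes at 0.05. The SE is the size of the log2 fold change over the root of F. DESeq2 1.42.0 and limma 3.58.1 (voom) were alternatives. The log2 CPM used a prior count of 2. The fits were tested on simulated data. Members were placed in complexes by their known protein, with Ndufa4 in complex IV and assembly factors and tissue isoforms apart.

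Coordinates and promoter sequences come from RefSeq on GRCm38.p6, the assembly that mm10 names, matched by symbol for 12583 of 12623 tested genes. Members and lists were chosen with earlier results of these data known. Named members are core and catalytic subunits, isoform pairs, the lowest and highest fold change of each complex and the 5 smallest unadjusted p, and, in the lists, the 2 genes of highest mean CPM. Other members, Cox15 and the marker genes named were chosen after their values were seen. Of the core subunits, 1 is counted but not reported here by itself. Transcript lengths were not used here, so levels of different genes were not compared.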

Additional observations from a re-analysis of the deposited data

How the results depend on the processing

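Member calls were 0 in all 13 alternatives, as was the count of members DESeq2 called with each library left out. Over all genes edgeR called 0, DESeq2 called 352, edgeR without a low count filter 4, and edgeR with the replicate number as a block 11, of which 0 were members. With a library left out, edgeR called 0 to 156 genes: 50 without WT replicate 1, 156 without WT replicate 2 and 0 without either KO library, assuming that a group's single library varies as the other group does. The replicate block changed no call of a member, and the lowest adjusted p among them with it was 0.296. The labels tie the replicate numbers to no shared mouse, batch or day, and the WT and KO differences between replicates correlated with r = 0.19 across 12623 genes.

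Leaving out 1 library moved the median log2 fold change of complex I between -0.29 and 0.25 and that of complex III between -0.37 and 0.14. Of 40 named tested members, 8 to 14 turned sign with a library left out, 3 with library totals as scaling (Ndufs1, Sdhc and Atp5e) and 1 with DESeq2's size factors (Atp5c1, at 0.0052). That of Ndufs1, 0.019, became -0.044. Scaling by library totals moved the median of all genes to -0.069. The KO to WT ratios of summed CPM moved by less than the spread between replicates in each alternative. With a library left out this holds by construction, since a group mean then moves by only part of the gap between its replicates. For those alternatives it thus says nothing about stability. Levels per kilobase were not run.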
